A study of Mus musculus with 20 samples.

Results

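The 10 genes described here serve antigen presentation by major histocompatibility complex (MHC) class II and the cells that carry it out. They are H2-Aa, H2-Ab1, H2-Eb1, Cd74, Ciita, H2-DMa, H2-DMb1, Itgax, Cd86 and Flt3, and were found by symbol in a table of unnormalised read counts. All 10 were found among 55487 gene identifiers, of which 21936 are protein coding. RNA was sequenced from whole liver of 20 female C57BL/6J mice aged 28 weeks, with 1 library per mouse. The sample labels gave 5 chow-fed mice (Chow) and 3 groups fed a high-fat diet (HFD) whose protein came in part from salmon fishmeal (Fishmeal, n = 5), salmon filet (Salmon, n = 6) or beef (Beef, n = 4). Feeding of HFD or chow began at 8 weeks of age. The 15 HFD-fed mice had been made obese on HFD before the alternative protein sources were given. These sources then made up 50% of the protein for 10 weeks. The chow-fed mice stayed on chow throughout. The groups therefore compare complete diets, and HFD and chow differ in more than fat. The labels name no transgene or deletion in any group.

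MHC class II molecules are pairs of an alpha and a beta chain that show peptides from engulfed material to CD4+ T cells. The invariant chain, encoded by Cd74, holds the new pair until an H2-DM molecule exchanges its remnant for a peptide in the endosome, and the coactivator encoded by Ciita switches on the genes of the whole pathway. Dendritic cells, B cells, macrophages and sinusoidal endothelial cells are among the cells known to carry class II in the liver. Itgax (CD11c), the costimulatory ligand Cd86 and the growth factor receptor Flt3 are genes of dendritic cells. Itgax and Cd86 are also genes of some macrophages.

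On the GRCm38 mouse genome, the class II chain genes lie together on chromosome 17, with H2-Ab1 at 34257689 to 34269419 on the plus strand, H2-Aa at 34282744 to 34287823 on the minus strand and H2-Eb1 at 34305867 to 34316674 on the plus strand. The same region holds H2-DMa at 34119541 to 34139101 and H2-DMb1 at 34153072 to 34160230, both on the plus strand. Ciita (10480059 to 10528418) and Cd86 (36603869 to 36666081) lie on chromosome 16, Itgax on chromosome 7 (128129547 to 128150657) and Flt3 on chromosome 5 (147330741 to 147400489).

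Class II genes are known to share a promoter module, in which an X1 box, bound by the RFX complex of Rfx5, Rfxank and Rfxap, is followed by a Y box, bound by NF-Y. The stretches below, from H2-Eb1, H2-DMb1 and H2-Aa, are shown because they hold the module or letters like it. RefSeq promoter windows (GRCm38.p6, from 250 bases before to 50 bases after a start) were held for 6 of the 10 genes. The first 2 stretches below hold the X1 core ACNGATG and the Y box ATTGG, in capitals, with 22 bases between them in H2-Eb1 and 23 in H2-DMb1. They lie at chr17:34305767-34305817 (H2-Eb1, plus strand) and chr17:34153088-34153139 (H2-DMb1, plus strand), with the X1 core beginning 88 and 91 bases before the RefSeq start. The GENCODE gene H2-DMb1 starts farther upstream, at 34153072, so that this stretch lies before the RefSeq start and inside the GENCODE gene. In H2-Aa (chr17:34287862-34287909, minus strand) the capitals mark TGACGT and ATTGG, with 20 bases between them. The search for TGACGT was added after this window had been read.
H2-Eb1: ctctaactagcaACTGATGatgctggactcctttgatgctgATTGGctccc
H2-DMb1: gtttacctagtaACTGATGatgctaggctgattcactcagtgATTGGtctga
H2-Aa: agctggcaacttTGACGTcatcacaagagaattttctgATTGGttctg

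Both strands were searched, and the Y box is CCAAT read on the other strand. An X1 core followed on the same strand by a Y box 10 to 40 bases later was found in 74 of 32851 promoter windows (0.2253%), from 72 genes, of which 10 have names beginning with H2-. Those 10 include H2-DMb2 and H2-Eb2 beside H2-DMb1 and H2-Eb1, and also class I genes such as H2-D1. TGACGT followed by ATTGG at the same spacing was found in 0.3957% of windows. CCAAT on either strand was found in 37.41% of all windows and in 5 of the 7 windows of the 10 genes, and an X1 core in 9.851% and in 3 of 7. A match of letters does not show that a factor binds.

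The libraries held 42526234 to 70266136 gene-assigned reads (median 56022032). The 10 genes drew from 18 counts (Flt3 in beef-fed mouse 39) to 4968 counts (Cd74 in chow-fed mouse 2), and all 10 passed the filter on low counts in every comparison. The protein coding share was 93.2% to 95.6% in 19 libraries and 84.3% in beef-fed mouse 35. Mouse 31 is labelled Salmon, whereas its column in the count table is named Beef. By column name, Salmon and Beef hold 5 mice each, as Chow and Fishmeal do. The study describes sequenced groups of equal size, which the column names give and the labels do not. Groups still follow the labels. For the 10 genes, comparisons with salmon filet or beef are also given with mouse 31 counted as Beef and without it. Counts of other lists by single diet, spreads within groups and values centred on group means are given by the labels only. Liver identity was plain, since 8 hepatocyte genes together took 90679 to 120787 reads on the counts-per-million scale (CPM) in each library. In whole liver, fewer cells of a type and less RNA per cell cannot be told apart.

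Levels between genes were compared on the transcripts-per-million scale (TPM), which are scaled to gene length. The invariant chain gene Cd74 had the highest level, at 79.1 ± 21.8 TPM (SD, n = 20), and was above the other 9 genes in every library. H2-Ab1 followed at 22.4 ± 6.92 TPM and lay above H2-Eb1 in 18 of 20 libraries. H2-Eb1 (18.9 ± 5.51 TPM) and H2-Aa (18.6 ± 5.80 TPM) could not be ordered, with H2-Eb1 the higher in 11 of 20 libraries. The H2-DM genes were lower, with H2-DMb1 at 5.38 ± 1.42 and H2-DMa at 2.63 ± 0.690 TPM. The dendritic cell genes and the regulator closed the order, with Cd86 at 2.08 ± 0.581, Itgax at 1.348 ± 0.497, Ciita at 0.698 ± 0.222 and Flt3 at 0.259 ± 0.0825 TPM. H2-DMa lay above Cd86 in 17 of 20 libraries and Cd86 above Itgax in 18, while Itgax was above Ciita, and Ciita above Flt3, in all 20. C57BL/6 mice are known to lack a working E alpha chain, the partner of the product of H2-Eb1, and the pseudogene of that chain, H2-Ea-ps, held 1 count in all 20 libraries together.

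To ask whether the diets altered these genes, their counts were compared between HFD-fed and chow-fed mice. None of the 10 genes was called, and their levels overlapped between diets for each gene. The class II chain genes and Cd74 differed by no more than 0.07 on the log2 scale between diet means, while single mice on the same diet differed by up to 3.33-fold. At an adjusted p under 0.05 (edgeR's quasi-likelihood test, Benjamini-Hochberg adjustment over all genes), 0 of 10 were called, against 9.75% of the 17120 genes tested. At an unadjusted p under 0.05 the count was also 0 of 10, against 24.4% of all genes, and DESeq2 called 0. Diet groups did not overlap in CPM for 1.58% of all genes and for none of the 10.

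**Figure D1:**
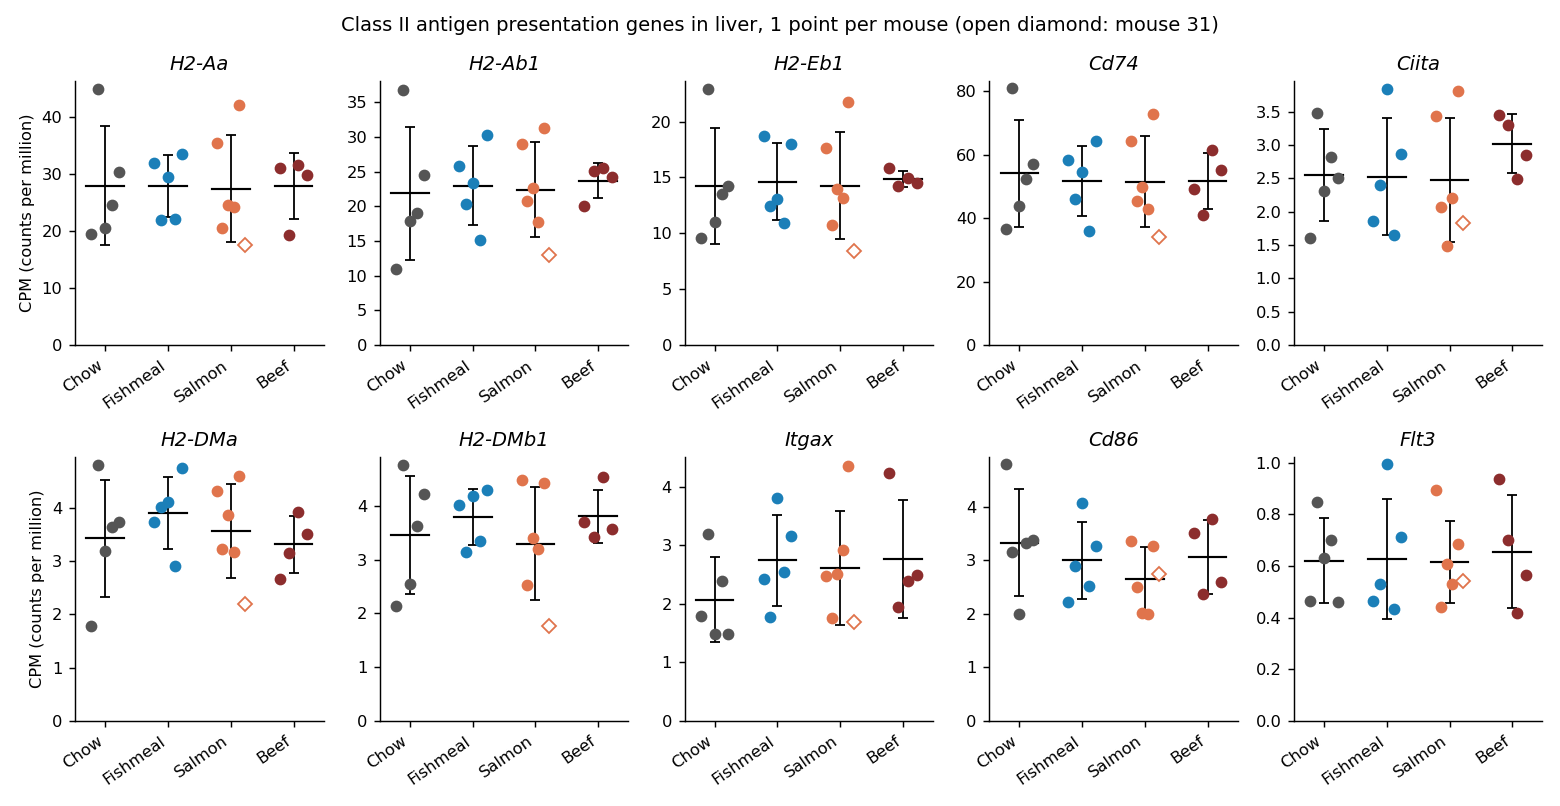
CPM of each of the 10 genes (y axis, linear from 0) in each mouse, by diet group (x axis); horizontal lines are group means and bars are ± SD (n = 5 Chow, 5 Fishmeal, 6 Salmon, 4 Beef). The 4 groups overlap for every gene, chow-fed mouse 2 is the highest point for 6 genes, and mouse 31 (open diamond) is the lowest for 4.

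H2-Aa, the alpha chain of the class II molecule I-A, was at 19.4, 20.6, 24.5, 30.3 and 44.9 CPM in the chow-fed mice. It was at 22.0, 22.1, 29.5, 32.0 and 33.5 CPM with fishmeal, at 17.6, 20.5, 24.3, 24.5, 35.5 and 42.1 CPM with salmon filet, and at 19.3, 29.8, 30.9 and 31.5 CPM with beef. The chow-fed mice thus held nearly the whole range seen on HFD. The mean was 27.9 ± 10.4 CPM in chow-fed mice and 27.7 ± 6.88 CPM in HFD-fed mice, so that log2 of HFD over chow was -0.02 ± 0.19 (SE) at an adjusted p of 0.971. The 95% interval of the change ran from 0.755-fold to 1.29-fold.

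H2-Ab1, the beta chain of I-A, was at 11.03, 17.9, 19.0, 24.6 and 36.8 CPM in chow-fed mice. It was at 15.1, 20.4, 23.4, 25.8 and 30.2 CPM with fishmeal, at 13.0, 17.8, 20.7, 22.6, 28.9 and 31.3 CPM with salmon filet, and at 20.0, 24.2, 25.1 and 25.5 CPM with beef. Both the lowest and the highest of the 20 values came from chow-fed mice. The log2 fold change of HFD over chow was 0.07 ± 0.20 (adjusted p = 0.880, 95% interval 0.785-fold to 1.396-fold).

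H2-Eb1, the beta chain of I-E, was at 9.56, 11.01, 13.5, 14.2 and 22.9 CPM in chow-fed mice. It was at 10.96 to 18.7 CPM with fishmeal (median 13.1) and at 8.38 to 21.7 CPM with salmon filet (median 13.6). Its log2 fold change was 0.03 ± 0.18 (adjusted p = 0.952, interval 0.783-fold to 1.324-fold). The 4 mice labelled Beef stood close together, at 14.2, 14.5, 14.9 and 15.9 CPM (SD 0.726). Mouse 31, which is Beef by its column name, was at 8.38 CPM, and with it the SD was 2.97 CPM. H2-Eb1 shares 168 bases with H2-Ab1 at 92.26% identity and overlaps Gm20513 on the other strand, and how reads that fit several genes were counted is not given in the sources used here.

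Cd74, the invariant chain gene (chromosome 18, 60803848 to 60812652, plus strand), was at 36.6, 43.7, 52.2, 57.0 and 80.8 CPM in chow-fed mice. It was at 36.0, 46.0, 54.5, 58.3 and 64.2 CPM with fishmeal, at 33.9, 42.8, 45.5, 49.7, 64.3 and 72.8 CPM with salmon filet, and at 41.0, 49.2, 55.1 and 61.5 CPM with beef. Chow-fed mouse 2 alone lay outside the HFD range. The log2 fold change was -0.07 ± 0.16 (adjusted p = 0.843, interval 0.754-fold to 1.205-fold), the narrowest interval of the 10 genes on the log2 scale.

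Ciita, the coactivator that class II genes depend on, was a low transcript with 78 to 234 counts per library. It was at 1.60, 2.32, 2.51, 2.82 and 3.48 CPM in chow-fed mice. It was at 1.65, 1.86, 2.40, 2.87 and 3.84 CPM with fishmeal, at 1.48, 1.83, 2.07, 2.20, 3.44 and 3.81 CPM with salmon filet, and at 2.49, 2.85, 3.31 and 3.45 CPM with beef. The chow values fell inside the HFD range. Its log2 fold change was 0.05 ± 0.21 (adjusted p = 0.920, interval 0.764-fold to 1.401-fold). The neighbouring gene Dexi runs on the other strand and shares 134 bases with it at 99.25% identity.

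H2-DMa and H2-DMb1 encode the chains of H2-DM, the molecule that loads peptide. H2-DMa was at 1.78, 3.20, 3.64, 3.75 and 4.82 CPM in chow-fed mice and at 2.19 to 4.76 CPM in HFD-fed mice (median 3.74), and its change was 0.07 ± 0.17 on the log2 scale (adjusted p = 0.849, interval 0.819-fold to 1.349-fold). H2-DMb1 was at 2.14, 2.55, 3.62, 4.22 and 4.77 CPM in chow-fed mice and at 1.77 to 4.53 CPM in HFD-fed mice (median 3.58), and its change was 0.06 ± 0.18 (adjusted p = 0.890, interval 0.799-fold to 1.351-fold). Both chow ranges again spanned the HFD medians. H2-DMa overlaps Brd2 on the other strand, and H2-DMb1 shares 1081 bases with its paralogue H2-DMb2 at 95.75% identity.

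Of the dendritic cell genes, Itgax and Cd86 gave the largest differences of the 10 genes on the log2 scale, and neither was called. Itgax was at 1.48, 1.49, 1.80, 2.39 and 3.19 CPM in chow-fed mice, at 1.78, 2.42, 2.54, 3.16 and 3.81 with fishmeal, at 1.68, 1.76, 2.47, 2.51, 2.92 and 4.36 with salmon filet, and at 1.95, 2.39, 2.49 and 4.24 with beef. In 11 of 15 HFD-fed mice the value was above the chow mean. The log2 fold change was 0.38 ± 0.23, or 1.30-fold with an interval from 0.937-fold to 1.80-fold (adjusted p = 0.323). Without chow-fed mouse 2 it was 0.59 (adjusted p = 0.150). Itgax shares 758 bases with Itgad at 94.99% identity.

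Cd86, the ligand of CD28 on T cells, was at 2.00, 3.16, 3.32, 3.37 and 4.80 CPM in chow-fed mice and at 2.00 to 4.07 CPM in HFD-fed mice (median 2.75). The log2 fold change was -0.22 ± 0.17 (adjusted p = 0.471, interval 0.669-fold to 1.101-fold), and with each library left out it ran from -0.36 without chow-fed mouse 5 to -0.04 without chow-fed mouse 1 (adjusted p = 0.194 and 0.938). Flt3, the receptor on which dendritic cell development depends, drew only 18 to 60 counts per library. It was at 0.459 to 0.846 CPM in chow-fed mice and at 0.418 to 0.994 CPM in HFD-fed mice. Its change was 0.02 ± 0.21 on the log2 scale (adjusted p = 0.966, interval 0.747-fold to 1.38-fold). The median log2 fold change was 0.03 over the 3 chain genes, 0.06 over the H2-DM pair and 0.02 over the 3 dendritic cell genes, beside 0.005 over all 17120 genes.

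To find out whether any single HFD differed from chow, the 3 HFD groups were then compared with chow one at a time. These comparisons share the chow-fed mice. In Fishmeal versus chow, edgeR called 0 of 10 genes (3.38% of all genes), and 0 of 10 had an unadjusted p under 0.05 (16.9% of all genes). The log2 fold changes ran from -0.16 for Cd86 to 0.40 for Itgax. In Salmon versus chow the calls were 0 of 10 (4.46% of all genes), and 0 were below 0.05 without adjustment (21.5%), with changes from -0.34 for Cd86 to 0.33 for Itgax. In Beef versus chow they were 0 of 10 (2.48%) and 0 without adjustment (17.8%), with changes from -0.13 for Cd86 to 0.42 for Itgax. Itgax had the highest change of the 10 genes and Cd86 the lowest in each of these comparisons. The interval of Itgax in Beef versus chow reached from -0.22 to 1.06 on the log2 scale. The change of H2-Aa was -0.01 in Fishmeal, -0.03 in Salmon and -0.01 in Beef versus chow on the log2 scale, with adjusted p-values of 0.987, 0.953 and 0.989. Cd74 was at -0.07 in Fishmeal (95% interval -0.52 to 0.39), -0.08 in Salmon (-0.54 to 0.38) and -0.07 in Beef (-0.54 to 0.39). DESeq2 called none of the 10 genes in these comparisons.

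Between the protein sources the question was whether fishmeal, salmon filet or beef set these genes apart on a shared HFD. In Fishmeal versus salmon, edgeR called 0 of 10 genes (0.157% of all genes), and 0 lay below an unadjusted p of 0.05 (4.24%), with log2 fold changes from 0.02 (Cd74) to 0.22 (H2-DMb1). In Fishmeal versus beef the counts were 0 of 10 (0.00607%) and 0 without adjustment (2.33%), with changes from -0.27 (Ciita) to 0.24 (H2-DMa). In Salmon versus beef they were 0 of 10 (0%) and 0 without adjustment (3.71%), with changes from -0.29 (Ciita) to 0.10 (H2-DMa). DESeq2 called none here either. With so few genes called between these diets at all, a count of 0 carries little, and the 95% intervals of single genes reached down to -0.84 and up to 0.67 on the log2 scale.

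The place of mouse 31 moved the values of these comparisons but no call. With mouse 31 counted as Beef, the lowest and highest log2 fold changes of the 10 genes were -0.35 and 0.43 in Salmon versus chow, -0.18 and 0.30 in Beef versus chow, -0.09 and 0.19 in Fishmeal versus salmon, -0.15 and 0.34 in Fishmeal versus beef, and -0.19 and 0.31 in Salmon versus beef. H2-Aa in salmon-fed mice was at 27.4 ± 9.40 CPM (n = 6) by the labels and at 29.3 ± 9.05 CPM (n = 5) without mouse 31. In beef-fed mice it was at 27.9 ± 5.80 CPM (n = 4) by the labels and at 25.8 ± 6.80 CPM (n = 5) with mouse 31. The number of genes called was 0 with mouse 31 as labelled, as Beef and left out.

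What stood out in these genes was the difference from mouse to mouse. Across the 20 livers the highest value was 2.37-fold (Flt3) to 3.33-fold (H2-Ab1) above the lowest. Chow-fed mouse 2 had the highest CPM of H2-Aa, H2-Ab1, H2-Eb1, Cd74, H2-DMa and H2-DMb1. Mouse 31 had the lowest of H2-Aa, H2-Eb1, Cd74 and H2-DMb1, and chow-fed mouse 1 the lowest of H2-Ab1 and H2-DMa. The lowest and the highest H2-Ab1 and H2-DMa thus both came from the chow group.

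The SD within diet groups, on the log2 CPM scale, was 0.42 for H2-Aa, 0.46 for H2-Ab1, 0.40 for H2-Eb1 and 0.37 for Cd74. Among the 3168 to 4497 genes whose mean CPM lay within a factor of 2 of one of these, the median SD was 0.18 to 0.20. H2-Aa had a larger SD than 93.2% of such genes, H2-Ab1 than 94.7%, H2-Eb1 than 91.1% and Cd74 than 90.3%. Ciita, H2-DMa and H2-DMb1 exceeded 81.4%, 74.8% and 77.2%, Itgax 84.4%, Cd86 68.4% and Flt3 36.1%. The 4 diet groups accounted for 0.582% of the variance of H2-Aa, 3.44% of H2-Ab1, 2.02% of H2-Eb1 and 0.526% of Cd74, where genes of like level had a median near 18 (17.9% to 18.2%). These shares are descriptions and were not tested.

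**Figure D2:**
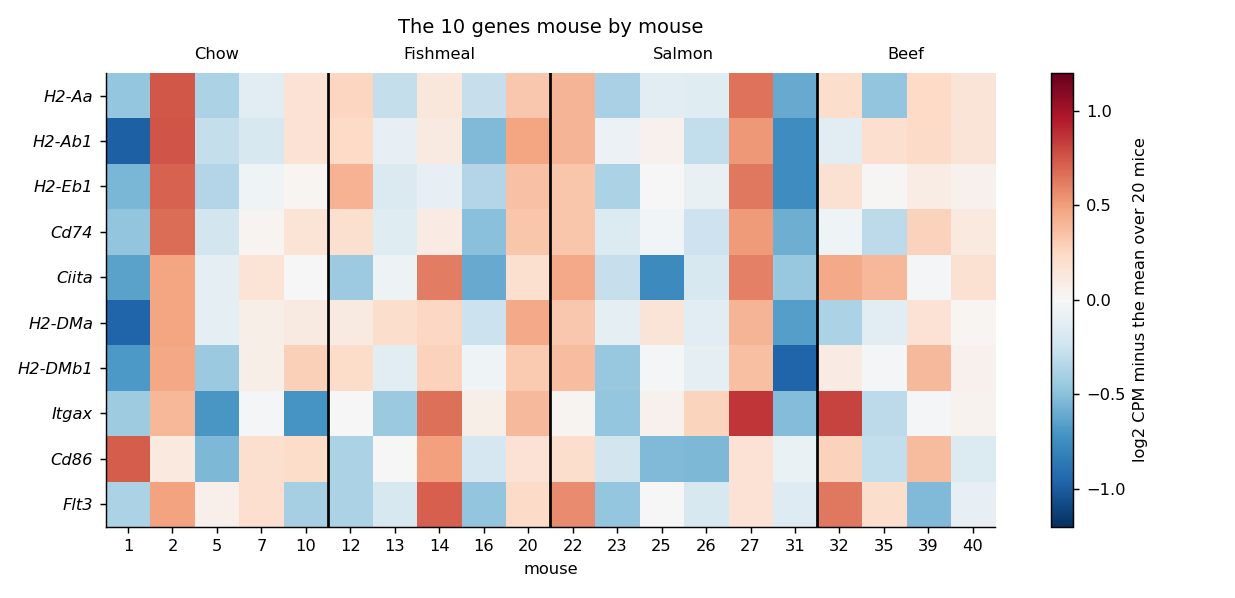
Log2 CPM of the 10 genes (rows) in the 20 mice (columns, grouped by diet), each minus the gene's mean over all mice; red is above and blue below the mean. The upper 7 rows change colour together from mouse to mouse, as in mice 2 and 27 (red) and mice 1 and 31 (blue), within diets rather than between them.

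The class II genes varied together. After each group's mean had been subtracted, the log2 CPM of H2-Aa, H2-Ab1, H2-Eb1 and Cd74 correlated with one another at a Pearson r of 0.825 to 0.945 over the 20 libraries (Spearman's rho 0.798 to 0.947). H2-DMa and H2-DMb1 followed them at r of 0.752 to 0.938 and Ciita at 0.613 to 0.661. The dendritic cell genes were further off, with Itgax at 0.421 to 0.715, Flt3 at 0.404 to 0.443 and Cd86 at 0.021 to 0.310. Ciita stood nearer to Flt3 (r = 0.772) than to any of the 4 class II genes. Each value comes from the same libraries, so the genes share depth and tissue sampling, and the values are given as descriptions.

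Of 12683 other genes with a mean of at least 1 CPM, those most like the mean of H2-Aa, H2-Ab1, H2-Eb1 and Cd74 were P3h2 (r = 0.895), which encodes a collagen prolyl hydroxylase, and Rab7b (r = 0.826), which encodes a GTPase of late endosomes. They were followed by Pamr1 (0.822), Sgce (0.805), the secreted glutathione peroxidase Gpx3 (0.800), Fam78a (0.797), the pyruvate kinase Pkm (0.783), the actin-severing protein gelsolin Gsn (0.783), Olfml3 (0.782) and Rab34 (0.773). The middle gene of the 12683 had an r of -0.005 and the 99th percentile was 0.621. Without mice 2 and 31, the libraries farthest from the median, the r of these 10 genes was 0.698 to 0.859.

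Lists of cell markers were set beside the class II level in the same way, as the mean log2 CPM of a list minus its group mean. By Pearson's r the class II level moved most with the stellate cell list (r = 0.726, rho = 0.680, n = 20), and by Spearman's rho with the monocyte list (r = 0.709, rho = 0.702). The cholangiocyte list, which shares Spp1 with the monocyte list, followed (r = 0.608, rho = 0.543). The class II level moved less with the dendritic cell list (0.576), the B cell list (0.424) and the liver endothelial cell list (0.311). With the Kupffer cell list r was -0.004, although Kupffer cells are the resident macrophages of the liver. The mean of a list is not scaled by gene. In this list Marco ranged widest, at 3.30 to 81.4 CPM in HFD-fed mice, and its weight in this r was not tested. The class II level had an r of 0.103 with the hepatocyte list, 0.0742 with interferon gamma signalling and 0.243 with MHC class I presentation. Without mice 2 and 31 the values were 0.628 for stellate cells, 0.551 for monocytes, 0.505 for cholangiocytes, 0.450 for dendritic cells and 0.348 for B cells.

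**Figure D3:**
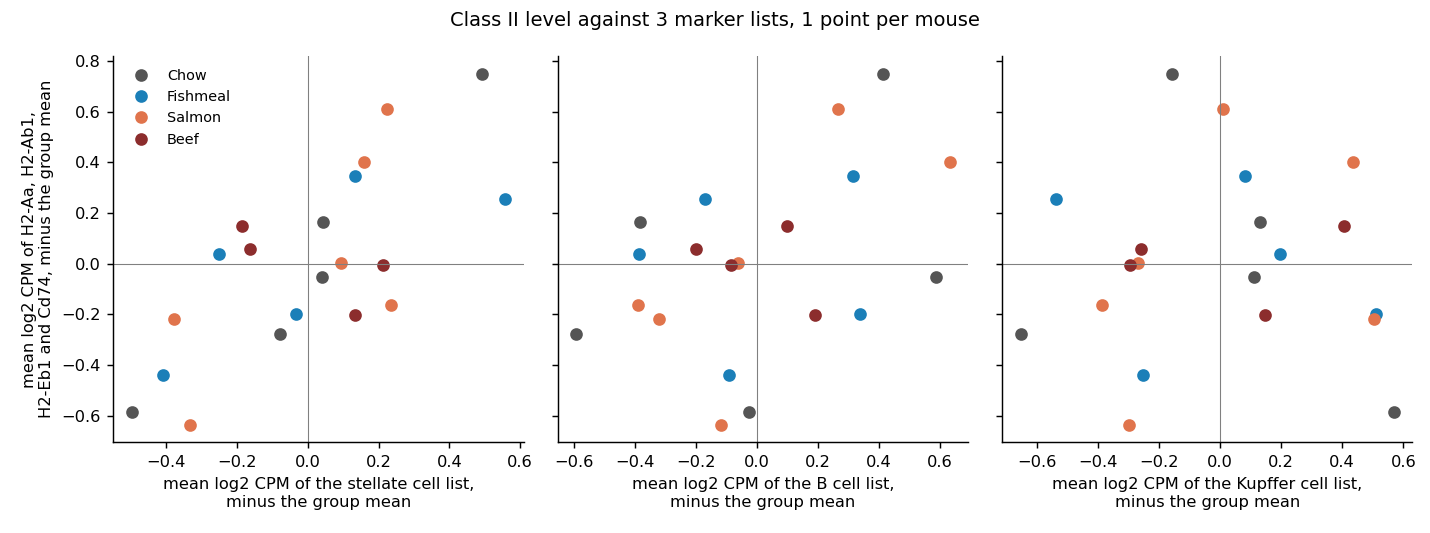
Class II level (y axis, mean log2 CPM of H2-Aa, H2-Ab1, H2-Eb1 and Cd74 minus the diet group's mean) against the same measure of the stellate cell, B cell and Kupffer cell lists (x axes), 1 point per mouse coloured by diet. The points climb together with the stellate cell list (r = 0.726), less so with the B cell list (0.424) and not with the Kupffer cell list (-0.004).

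Chow-fed mouse 2 had the highest class II level of the 20 mice, and mouse 31 and chow-fed mouse 1 had the lowest. In mouse 2 the class II level was 0.72 above the mean of all mice on the log2 scale, the stellate cell list 0.38 above and the Kupffer cell list 0.05 above. In mouse 1 the class II level was 0.62 below that mean (-0.62), the stellate cell list was at -0.61 and the Kupffer cell list at 0.78. Mouse 31 was at -0.67 for class II, -0.22 for the stellate cell list and -0.48 for the Kupffer cell list. The part of the sampled tissue in these differences was not tested.

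Of 24 other listed genes of the class II pathway, 22 were tested in HFD versus chow, and edgeR called 3 lower (5.21% of all genes) and 1 higher (4.54%), while 18 were not called. The median log2 fold change of the 22 was -0.19 and 17 of them had a negative sign, beside a median of 0.005 over all genes. At an unadjusted p under 0.05 the count was 9 of 22, against 24.4% of all genes. The 3 lower genes were H2-Ob, H2-DMb2 and Rfxank, and the higher was March8.

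**Figure D4:**
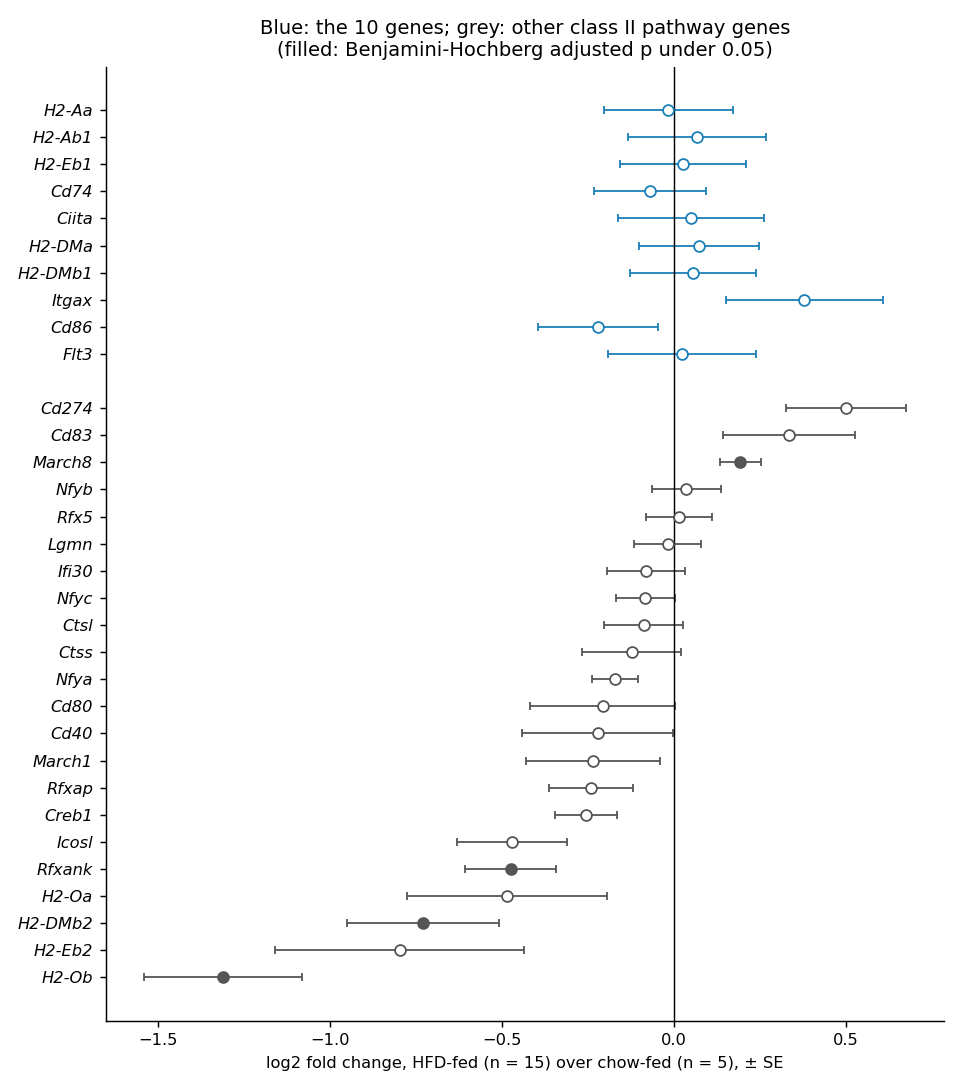
Log2 fold change of HFD-fed (n = 15) over chow-fed mice (n = 5) with its SE (x axis) for the 10 genes (blue) and for 22 other genes of the class II pathway (grey); filled points had an adjusted p under 0.05. The blue points are all open, and H2-Ob lies farthest from 0, at -1.3.

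H2-Ob, the beta chain of H2-DO, which restrains H2-DM and is known mainly from B cells, was at 1.96, 2.04, 2.29, 2.95 and 3.35 CPM in chow-fed mice. It was at 0.778, 0.783, 0.847, 0.868 and 1.397 CPM with fishmeal, at 0.369, 0.664, 0.960, 0.972, 1.51 and 1.63 with salmon filet, and at 0.627, 0.976, 1.308 and 1.53 with beef. All 15 HFD-fed mice thus lay below the lowest chow-fed mouse. H2-Ob fell by 1.3 ± 0.23 on the log2 scale (adjusted p = 7.91e-04). The call was kept with each of the 20 libraries left out in turn (log2 fold change -1.39 to -1.19). Its partner H2-Oa was at 0.358 CPM in chow-fed and 0.254 CPM in HFD-fed mice, and was not called (adjusted p = 0.319).

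H2-DMb2, the second beta chain gene of H2-DM, was at 0.983, 1.131, 1.21, 1.52 and 1.94 CPM in chow-fed mice. In HFD-fed mice it was at 0.513 to 1.73 CPM (median 0.740), and the highest of these was beef-fed mouse 35. It fell by 0.73 ± 0.22 on the log2 scale (adjusted p = 0.0372), while its paralogue H2-DMb1 had a change of 0.06. The call was lost in 7 of the 20 leave-one-out fits, at an adjusted p of 0.166 without chow-fed mouse 2, 0.102 without mouse 7 and 0.0688 without mouse 1, and at 0.0505 to 0.0536 without fishmeal-fed mouse 14, salmon-fed mouse 25 or 26, or beef-fed mouse 39. Without mouse 35 it was 0.00472. On genes with at least 1 count the call was lost too (0.0621). Rfxank, a subunit of the RFX complex, was at 24.8, 26.3, 26.5, 27.6 and 30.2 CPM in chow-fed mice and at 13.2 to 25.2 CPM in HFD-fed mice (median 18.5). It fell by 0.47 ± 0.13 (adjusted p = 0.0248), a call lost without chow-fed mouse 2 (0.0805) or mouse 7 (0.0616). The other RFX subunit genes were not called, with Rfx5 at a log2 fold change of 0.01 and Rfxap at -0.24. Those of NF-Y were at -0.17 (Nfya), 0.04 (Nfyb) and -0.08 (Nfyc), uncalled as well. H2-DMb2 and H2-Eb2, the neighbours that hold the X1 and Y boxes in the arrangement of H2-DMb1 and H2-Eb1, were both low transcripts, H2-Eb2 at 0.245 ± 0.108 CPM in chow-fed and 0.141 ± 0.0827 CPM in HFD-fed mice (adjusted p = 0.176).

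March8, a ubiquitin ligase that takes class II and other proteins from the cell surface, was at 82.3 to 95.3 CPM in chow-fed mice and at 92.3 to 111 CPM in HFD-fed mice. It rose by 0.19 ± 0.06 on the log2 scale (adjusted p = 0.0387), and the call was lost in 8 of 20 leave-one-out fits, those without any 1 of the 5 chow-fed mice, fishmeal-fed mouse 14 or 20, or beef-fed mouse 40 (log2 fold change 0.16 to 0.21). It was lost as well in limma on log2(TPM + 1) and log2(TPM + 0.1), at 0.14 in both (adjusted p = 0.216 and 0.221), and in edgeR on genes with at least 1 count (0.0841). Genes of peptide making were not called, with log2 fold changes of -0.12 for Ctss, -0.09 for Ctsl, -0.02 for Lgmn and -0.08 for Ifi30. The costimulatory and checkpoint genes Cd40 (-0.22), Cd80 (-0.21), Cd83 (0.33), Cd274 (0.50, adjusted p = 0.0708) and Icosl (-0.47, adjusted p = 0.0616) were not called either. By single diet and by the labels only, edgeR called 1 pathway gene lower than chow in Fishmeal, 1 in Salmon and 2 in Beef. Between the HFD groups it called 0 (0, 0 and 2 at an unadjusted p under 0.05).

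**Figure D5:**
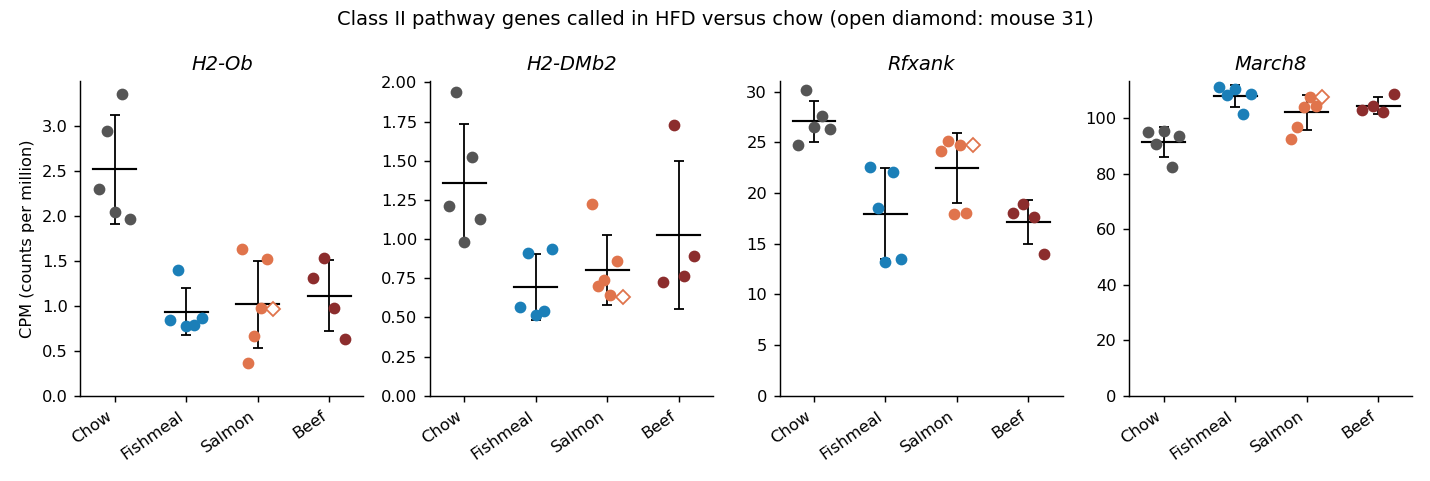
CPM (y axis, linear from 0) of H2-Ob, H2-DMb2, Rfxank and March8 in each mouse by diet group (x axis), with group means (lines) and SD (bars). Each of the 15 HFD-fed mice is below the lowest chow-fed mouse for H2-Ob, whereas the groups overlap for H2-DMb2, Rfxank and March8.

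B cell markers moved with diet beside H2-Ob. Of 11 genes of the B cell list, 9 were called lower in HFD-fed mice (5.21% of all genes) and 0 higher (4.54%), with a median log2 fold change of -1.08. Cr2, a complement receptor, fell by 1.77 on the log2 scale (adjusted p = 0.00190). It was low and overlapped, at 0.158 to 1.38 CPM in chow-fed and 0.0527 to 0.348 CPM in HFD-fed mice. Cd79a, a chain of the B cell receptor complex, fell by 1.404 (adjusted p = 0.0137) and Fcmr, a receptor of IgM, fell by 1.38 (adjusted p = 0.00429). Cd37, the gene of highest CPM in the list, was not called (log2 fold change -0.29, adjusted p = 0.249). The summed level of the list was 15.6 to 28.6 CPM in chow-fed mice and 9.13 to 16.9 CPM in HFD-fed mice, and none of its genes was at 0 throughout a group. The study named Cd22 and Cd79 among its regulated genes from these libraries, so the list is not independent of them. Without chow-fed mouse 7 the number called lower was 5. For this list, single diets were compared with chow by the labels only, with mouse 31 in Salmon and not in Beef. There edgeR called 1 lower in the Fishmeal group (3.38% of all genes in either direction), 5 in the Salmon group (4.46%) and 0 in the Beef group (2.48%). At an unadjusted p under 0.05 the counts were 9, 10 and 8 (16.9%, 21.5% and 17.8% of all genes), at medians of -1.22, -1.25 and -0.92 on the log2 scale. The part of B cells in the fall of H2-Ob and H2-DMb2 was not tested.

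Marker lists of other cell types were also compared between HFD-fed and chow-fed mice. In whole liver such counts do not show which cells carry class II. The counts below stand against 9.75% of all genes called and 24.4% with an unadjusted p under 0.05. Of 18 other dendritic cell genes, 1 was called, Irf4, at 0.751 ± 0.370 CPM in chow-fed and 0.406 ± 0.112 CPM in HFD-fed mice (adjusted p = 0.0172). Irf4 is also a gene of activated B cells. The genes of highest level, Bst2 (-0.25 on the log2 scale) and Tcf4 (0.15), both of plasmacytoid dendritic cells and other types, were not called. Flt3l, the ligand of Flt3, chosen after its values were seen, was at 5.12 CPM in chow-fed and 4.05 CPM in HFD-fed mice and was not called (adjusted p = 0.0985). The list's summed level was 108 to 131 CPM in chow-fed and 85.3 to 134 CPM in HFD-fed mice, with none of its genes at 0 throughout a group. Of 12 Kupffer cell genes 0 were called (2 at an unadjusted p under 0.05), and of 10 tested monocyte and monocyte-derived macrophage genes 1 was called higher and 1 lower. The lower was Cd9, a tetraspanin of many cell types, at 28.1 ± 9.99 CPM in chow-fed and 12.3 ± 2.59 CPM in HFD-fed mice (adjusted p = 4.50e-05). The higher was Trem2, a lipid receptor of macrophages, at 0.329 ± 0.217 and 0.904 ± 0.323 CPM (adjusted p = 0.0105). Over the 10 genes, 5 changes were positive and 5 negative, with a median of 0.05 on the log2 scale. Of 12 tested T cell genes, 6 were called lower, among them Cd4, the coreceptor that binds class II, at 1.03 ± 0.297 and 0.554 ± 0.176 CPM (adjusted p = 0.01). Averaged over the 20 mice, 0 of the 13 listed T cell genes reached 1 CPM. Against chow by the labels, edgeR called 0 lower with fishmeal (3.38% of all genes in either direction), 4 with salmon filet (4.46%) and 0 with beef (2.48%). The study also named Cd4, Cd2, Cd3, Cd5, Cd6 and Cd28 from these libraries, so the T cell list is not independent of them. Cd4 was chosen here after its values were seen.

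Upstream signals and the class I pathway gave few calls. Of 11 tested genes of interferon gamma signalling, which induces Ciita in many cells, 0 were called by edgeR and 3 had an unadjusted p under 0.05, and the median change was 0.08 on the log2 scale. Of 14 genes of class I presentation 1 was called, the peptide transporter Tap1, which rose from 16.7 ± 2.81 CPM in chow-fed to 24.6 ± 4.07 CPM in HFD-fed mice (log2 fold change 0.55, adjusted p = 0.00518). Of 9 stellate cell genes, 0 were called by edgeR between the diets and 0 had an unadjusted p under 0.05. Of the rest, edgeR called 2 of 9 liver endothelial and 1 of 5 cholangiocyte genes lower, and 1 of 6 red blood cell genes higher. It called 0 of 8 hepatocyte, 0 of 4 neutrophil and 0 of 2 adipocyte genes (1, 1 and 1 at an unadjusted p under 0.05). Of 7 listed exocrine pancreas genes only Cela1 had enough counts to be tested, and it was called higher. The number of the 7 without a count throughout a group was 4 in Chow, 4 in Fishmeal, 2 in Salmon and 6 in Beef.

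Genes of the circadian clock also differed between the diets, so the fit was repeated with a clock score. A score of 6 clock genes minus 5 of the opposite phase was -2.65 to -0.863 in chow-fed mice and -1.89 to 3.18 in HFD-fed mice. With this score as a covariate, edgeR called 284 of 17120 genes, 0 of the 10 class II presentation genes, 0 of the 22 other pathway genes and 0 of the 11 B cell genes. H2-Ob then had a log2 fold change of -0.89 (adjusted p = 0.181), H2-DMb2 of -0.84 (0.233), Rfxank of -0.09 (0.871) and March8 of 0.16 (0.368). Diet and clock phase cannot be told apart where the chow-fed mice hold the low scores.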

How the data were processed

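Liver RNA of 20 mice, as strand-specific mRNA libraries, was read from both ends of each fragment. Per the labels and the study's methods, the authors used BBDuk for trimming, HISAT2 for alignment and featureCounts for counting by gene. The deposited counts are unnormalised, and the TPM values the authors deposited divide the same counts by 1 length per gene. For 100% of 10432 well-counted genes, the ratio of TPM to count share was constant within 1%. The paper and labels print GRCh38 for the genome, and positions here are from GENCODE M21 on GRCm38, which held 55141 of the 55487 identifiers. Settings for strand and for reads that fit several genes are not given in the sources used here, so similar genes were sought with blastn 2.17.0.

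Counts were normalised by TMM, filtered with filterByExpr (minimum count 10) and tested with edgeR 4.0.16 in R 4.3.3 by a two-sided quasi-likelihood test, with Benjamini-Hochberg adjustment over all genes tested and calls at an adjusted p under 0.05. Intervals are at 95%. CPM used TMM factors over all libraries, with a prior count of 2 on the log scale. Groups came from the labels. The 41 pairs of libraries within groups each differed by more than counting noise (chi-square per gene 35.1 to 457), so none were merged. The 10 genes and all lists were chosen with earlier results of these data known. All 10 are named in each comparison, with the pathway genes called in HFD versus chow, at most 4 genes of any other list (those of highest CPM or called with the largest change) and the 10 genes of most similar pattern. Uncalled pathway genes, Cd4, Flt3l and Marco were named after their values were seen. Alternatives were DESeq2 1.42.0, DESeq2 size factors or upper quartile factors in edgeR, genes with at least 1 count or with 10 in every library, a fit on all 4 groups, limma 3.58.1 on log2(TPM + 1) or log2(TPM + 0.1) for a mean TPM of at least 0.5, groups by column name, a clock score as covariate, and each library left out. The count of B cell genes under these was added after seeing the data. The scripts were tested on simulated data.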

Additional observations from a re-analysis of the deposited data

Results flagged for a closer look

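In beef-fed mouse 35, H2-Aa was at 19.3 CPM, while the nearest of the other beef-fed mice was at 29.8 CPM, a gap wide enough to stand out in a group of 4. The same mouse was not set apart for H2-Ab1 (25.1 CPM) or H2-Eb1 (14.2 CPM), and its library had the lowest protein coding share (84.3%). Of 40 groups of mice tested by the labels, over 10 genes and 4 diets, this was the only 1 to stand out. Chance alone gives about 1 in 20. Mouse 31, which is Beef by its column name, was at 17.6 CPM. With it counted as Beef, mouse 35 was no longer the lowest of its group.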

How the results depend on the processing

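The number of the 10 genes called was 0 in each of 142 alternative fits over 7 comparisons, and the lowest adjusted p of a gene in HFD versus chow was 0.15. Small log2 fold changes of uncalled genes changed sign. With the clock score as covariate they were -0.18 for H2-Ab1, -0.025 for H2-Eb1, -0.069 for Ciita, -0.12 for H2-DMa, -0.11 for H2-DMb1 and -0.028 for Flt3. Ciita was at -0.0051 with limma on log2(TPM + 1) and -0.018 on log2(TPM + 0.1). With each library left out in turn, H2-Aa ran from -0.12 to 0.22, H2-Ab1 from -0.10 to 0.34, H2-Eb1 from -0.084 to 0.27, Cd74 from -0.18 to 0.12, Ciita from -0.077 to 0.19, H2-DMa from -0.091 to 0.23, H2-DMb1 from -0.073 to 0.20 and Flt3 from -0.073 to 0.17. The lowest change in Fishmeal versus salmon was -0.015 in both limma fits, -0.086 with mouse 31 as Beef, and -0.20 to 0.10 with libraries left out.

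Of the other pathway genes, 4 were called. The count was 2 on genes with at least 1 count (without H2-DMb2 and March8), 0 with the clock score, 6 with DESeq2 and 1 to 6 with libraries left out (1 without chow-fed mouse 2 or mouse 7, 2 without fishmeal-fed mouse 14). The causes were not tested. Over all genes the count of 1669 became 284 with the clock score, 986 without chow-fed mouse 1, 1070 without mouse 2 and 1049 without mouse 7. The B cell count of 9 was 5 in limma on log2(TPM + 0.1), 0 with the clock score and 5 to 9 with libraries left out. Replicate numbers are mouse numbers and are not shared between groups. No paired analysis was possible because the groups share no replicate number. Flt3, at 18 counts in its lowest library, was the most limited by depth.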
